A study of Homo sapiens with 10 samples.

Results

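The 7 genes described here encode the catalytic subunit of telomerase, TERT, and the 6 subunits of shelterin, TERF1, TERF2, TERF2IP, TINF2, POT1 and ACD. They were chosen by symbol and matched to Ensembl IDs, which gave 7 of the 60623 gene IDs in the deposited counts, and all 7 passed the filter on low counts that left 18450 genes to test. Messenger RNA was sequenced from A375, a human melanoma cell line, harvested 72 h after transfection of small interfering RNA (siRNA), in 10 libraries from 2 experiments. The first experiment held 4 libraries with siRNA to PHF10 and 2 controls, and the second held 2 libraries labelled MYC knockdown and 2 controls. PHF10 belongs to PBAF, a nucleosome remodelling complex, MYC is a transcription factor for genes of growth and division, and the study asked what PHF10 contributes to activation by MYC. Controls received a control siRNA according to the protocol, but no treatment according to their own sample field. The labels do not say whether replicates are separate cultures, and p-values therefore cover only the spread between these libraries, which may be technical.

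Telomeres are repeats at chromosome ends that shorten as cells divide. Telomerase lengthens them by copying an RNA template, TERC, with the reverse transcriptase TERT, which most somatic cells keep silent and most cancers express. Shelterin coats the repeats and keeps the DNA damage response away from them. In shelterin, TERF1 and TERF2 bind double-stranded repeats, TERF2IP (RAP1) binds TERF2, TINF2 (TIN2) joins the 2 arms of the complex, and ACD (TPP1) holds POT1 on the single-stranded end and recruits telomerase. TERT is described in the literature as a direct target of MYC, through E-boxes in its promoter.

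The promoters of TERT and TINF2 are shown because these 2 members stood at the 2 ends of the fold changes after PHF10 knockdown. They also differ in the letters marked, CACGTG and CCGGAA. The contrast between these 2 promoters was therefore fixed by the choice. They are RefSeq sequences of GRCh38.p14, from 250 bases before the start to 50 bases after it, on the minus strand at chr5:1295019-1295318 for TERT and chr14:24242625-24242924 for TINF2. Capitals mark the E-box CACGTG, which MYC and MAX bind, and CCGGAA or its reverse complement, a longer form of the ETS core GGAA. GGAA alone was not marked or counted, and its reverse complement TTCC occurs in the TERT window.
TERT promoter: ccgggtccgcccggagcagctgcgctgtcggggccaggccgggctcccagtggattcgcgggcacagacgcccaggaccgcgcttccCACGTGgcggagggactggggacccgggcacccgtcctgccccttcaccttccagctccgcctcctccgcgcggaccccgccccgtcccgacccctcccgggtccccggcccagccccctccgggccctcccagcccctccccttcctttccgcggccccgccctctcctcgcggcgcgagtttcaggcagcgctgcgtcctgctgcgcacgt
TINF2 promoter: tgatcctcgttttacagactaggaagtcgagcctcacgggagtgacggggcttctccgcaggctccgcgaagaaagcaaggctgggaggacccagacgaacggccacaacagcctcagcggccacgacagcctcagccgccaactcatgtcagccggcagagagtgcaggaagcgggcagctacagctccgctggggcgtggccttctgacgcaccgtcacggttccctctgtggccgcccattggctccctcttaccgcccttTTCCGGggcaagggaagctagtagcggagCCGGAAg
The TERT window held 1 CACGTG, beginning at position −163 from the start, no CCGGAA on either strand, and 3 GC boxes (GGGCGG on either strand), the letters SP1 binds. It ends in the letters CACGT, so a CACGTG across its edge would not be counted. The TINF2 window, the first of 2 in the table, held no CACGTG, 2 matches of CCGGAA on either strand and 2 GC boxes. RefSeq windows were also given for TERF2IP, POT1 and ACD, and not for TERF1 and TERF2. None of those 3 windows held CACGTG, while each held at least 1 GC box. The TERF2IP and POT1 windows held 1 match of CCGGAA each, and the ACD window held none. Of all 35116 promoter windows of 300 bases in the table, 7.26% held CACGTG, 45.0% GGGCGG and 17.2% CCGGAA on either strand. A match of letters does not show binding. These are reference sequences, and the promoters of A375 itself, which may differ, were not sequenced here.

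In GRCh38, TERT (ENSG00000164362) lies on the minus strand at chr5:1253147-1295069, and TERF1 (ENSG00000147601) lies on the plus strand at chr8:73008864-73048122. The shelterin genes on chromosome 16 are ACD (ENSG00000102977) at chr16:67657512-67660815 on the minus strand, TERF2 (ENSG00000132604) at chr16:69355561-69408571 on the minus strand and TERF2IP (ENSG00000166848) at chr16:75647786-75761872 on the plus strand. TINF2 (ENSG00000092330) lies at chr14:24239643-24242674 and POT1 (ENSG00000128513) at chr7:124822386-124929983, both on the minus strand. Reads over annotated exons were counted, by strand. ACD, POT1, TERF1 and TERF2IP overlap genes of the opposite strand, and TERF2 overlaps a gene without a symbol on its own strand. The 7 pseudogenes named after TERF1 held 9 reads in all libraries together, against 8323 for TERF1.

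Between 20.47 and 38.37 M reads per library were assigned to genes. Levels are given as CPM, gene reads per M gene reads after scaling by TMM factors. PHF10 mRNA was at 16.1, 18.0, 15.0 and 15.7 CPM in its own knockdown, replicates 1 to 4, against control levels of 40.1 and 36.6 CPM (−1.24 on the log2 scale, SE 0.10, edgeR adjusted p = 0.00105). MYC mRNA was at 16.7 and 13.3 CPM in labelled MYC knockdown replicates 1 and 2, against 15.0 and 26.5 CPM in the controls of experiment 2. MYC mRNA thus overlapped between those groups, and directions in experiment 2 rest on the labels. The common biological coefficient of variation, the spread between replicates beyond counting error, was 21.4% in the fit of all libraries, 26.7% with experiment 1 alone and 3.39% with experiment 2 alone. The melanocyte regulator SOX10 was expressed at 528 to 948 CPM, MITF at 16.8 to 55.3 CPM and S100B at 11 to 82.1 CPM. Of the pigment genes, MLANA and TYR were at or under 0.0571 CPM, TYRP1 at or under 0.567, DCT at or under 1.44 and PMEL at 0.371 to 2.54 CPM. Of the immune markers, PTPRC and CD3E were at or under 0.13 CPM, CD68 at or under 0.405, ITGAM at or under 0.97 and CD14 at 0.285 to 1.22 CPM.

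TERT mRNA fell after PHF10 knockdown, and it was the only one of the 7 genes to pass the test. TERT stood at 2.64, 1.54, 3.22 and 2.39 CPM in replicates 1 to 4 of the PHF10 knockdown, against 7.99 and 5.96 CPM in the controls of experiment 1. All 4 knockdown libraries lay below both controls, and the highest knockdown library was well under the lower control. The means were 2.45 ± 0.70 CPM (SD, n = 4) after PHF10 knockdown and 6.98 ± 1.4 CPM (SD, n = 2) in the controls, so that the knockdown mean was 35.1% of the control mean. The fitted log2 fold change was −1.51 (SE 0.27, approximate 95% interval −2.12 to −0.89; edgeR quasi-likelihood, Benjamini-Hochberg adjusted p = 0.0142). Among all genes tested 3.58% were called lower in this comparison and 6.34% in either direction.

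These values rest on few reads. TERT held 59, 38, 87 and 55 reads in PHF10 knockdown libraries, against 172 and 138 reads in control libraries. Counting error alone is 7.58% to 16.2% of the value across the 10 libraries, and the intervals of single counts cover counting error only. Only 4 reads lay on the other strand of TERT, beside 1050 on its own.

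The call was lost with either control left out and with experiment 1 fitted alone. Without control replicate 1 the log2 fold change was −1.29 (edgeR adjusted p = 0.112), and without control replicate 2 it was −1.71 (adjusted p = 0.0571). With experiment 1 fitted alone it was −1.51 again, with an adjusted p of 0.0919. Leaving out any single PHF10 knockdown library kept the call, with log2 fold changes of −1.67 to −1.34. Other tools gave adjusted p-values of 3.75e-05 (DESeq2) and 0.014 (limma-voom).

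**Figure D1:**
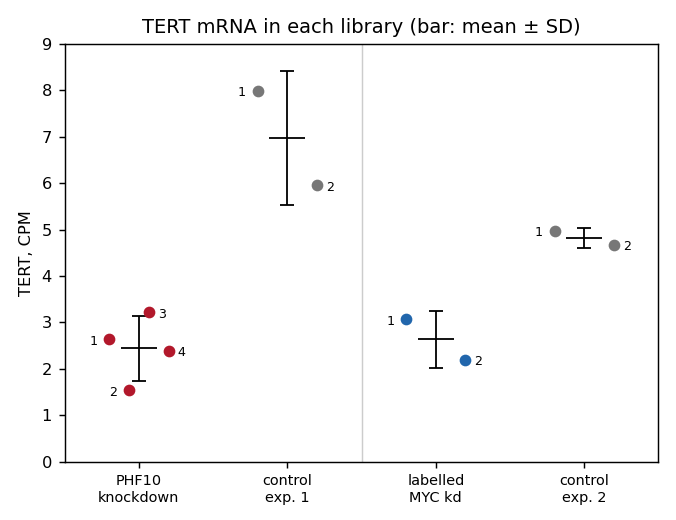
TERT mRNA in CPM (vertical axis, linear from 0) in each library, by group; points are libraries with their replicate number, bars the mean ± SD. The 4 PHF10 knockdown libraries lie at 1.54 to 3.22 CPM, below both controls at 5.96 and 7.99 CPM, and those labelled MYC knockdown lie at 2.20 and 3.07 CPM, below both of their controls at 4.67 and 4.97 CPM.

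Libraries of experiment 1 also differed in ways unrelated to their labels. Type I interferon genes (22 genes) were high in PHF10 knockdown replicates 1 and 2, with a mean log2 CPM of 7.78 and 7.47, and in control replicate 1 with 8.26. They were low in replicates 3 and 4 of the PHF10 knockdown, with 2.96 and 4.56, and in control replicate 2 with 4.46. TERT was lower in the knockdown on both sides of this split, at 2.64 and 1.54 CPM against 7.99 CPM where interferon genes were high and at 3.22 and 2.39 CPM against 5.96 CPM where they were low. With the high libraries left out the log2 fold change was −1.08 (edgeR adjusted p = 0.0862), and with the low ones left out it was −1.96 (adjusted p = 0.0542). The single control on each side is then assumed to vary like the other groups.

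Genes of cell division were also lower after PHF10 knockdown. In a list of 16 such genes the summed level was 797 to 1529 CPM after PHF10 knockdown and 1739 to 2415 CPM in the controls, with none of the genes at 0. The mean log2 CPM of the list was 5.25, 5.33, 6.11 and 5.82 after PHF10 knockdown (replicates 1 to 4), against 6.38 and 6.83 in their controls. Of the 16 genes, 7 fell and none rose after PHF10 knockdown by edgeR, in a comparison where 3.58% of all genes were called lower, with a list median of −0.98 on the log2 scale against 0.02 for all tested genes. Only 1 fell with experiment 1 fitted alone, in a fit that called 23 genes higher and 27 lower over all genes. With either control of experiment 1 left out, fewer genes were called in the list and also over all genes. The list median was −0.63 without control replicate 2. Without PHF10 knockdown replicate 3, 13 of the list fell, beside 725 lower over all genes. Of the 7, the helicase subunit GINS1 fell by 1.48 on the log2 scale (SE 0.12), the proliferation marker MKI67 by 1.24 (SE 0.24) and the cyclin gene CCNE2 by 1.23 (SE 0.20). MKI67 and CCNE2 missed the threshold with either control of experiment 1 left out (adjusted p = 0.0579 to 0.148) and with experiment 1 fitted alone (0.0946 and 0.0811). The part of cell division in the TERT result was not tested. In bulk RNA, fewer cells expressing TERT and less TERT mRNA per cell cannot be told apart.

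Under the MYC knockdown label TERT stood at 3.07 and 2.20 CPM, against 4.97 and 4.67 CPM in the controls of experiment 2. Both labelled libraries lay below both controls, but the labelled libraries stood farther apart than the controls did. The means were 2.64 ± 0.62 CPM and 4.82 ± 0.21 CPM (SD, n = 2 each), so that the mean in the labelled libraries was 54.7% of the control mean. The log2 fold change was −0.87 (SE 0.33, approximate 95% interval −1.59 to −0.14) and did not pass by edgeR over all genes (unadjusted p = 0.0246, adjusted p = 0.289). None of the 7 members was called here by edgeR, DESeq2 or limma-voom. By edgeR 0.493% of all genes tested were called, 0.282% higher and 0.211% lower. Of the 7 members 1, TERT, had an unadjusted p under 0.05 by edgeR, against 13.2% of all genes tested. With experiment 2 fitted alone, at its small spread, the TERT log2 fold change was −0.84 with an adjusted p of 3.8e-05. That fit called 3827 genes higher and 3954 lower, which is 21.9% and 22.6% of the genes it tested and 44.5% together. Left out 1 at a time, labelled replicate 1 gave −1.13 and labelled replicate 2 gave −0.65. The cell division list had a mean log2 CPM of 6.95 and 6.85 in the labelled libraries and 7.30 and 7.33 in their controls, with a median log2 fold change of −0.42. Its part in the TERT values was not tested.

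The effects on TERT were then compared with each other. The effect of PHF10 knockdown minus that of the labelled MYC knockdown was −0.64 on the log2 scale (SE 0.43, approximate 95% interval −1.60 to 0.32; edgeR adjusted p = 0.666). The value was −0.38 without labelled replicate 1, −0.42 without control replicate 1 of experiment 1, −0.22 with the high-interferon libraries left out and −1.11 with the low-interferon ones left out, and it passed in none of these. A difference was therefore not shown, and the interval includes effects of equal size as well as a larger fall of TERT in either comparison. For the other members the difference lay between −0.29 (ACD) and 0.20 (TINF2). None of the 7 was called by edgeR, DESeq2 or limma-voom, in a contrast where edgeR called 0.385% of all genes, 0.26% higher and 0.125% lower. None of the 7 had an unadjusted p under 0.05 by edgeR, against 11.7% of all genes tested.

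**Figure D2:**
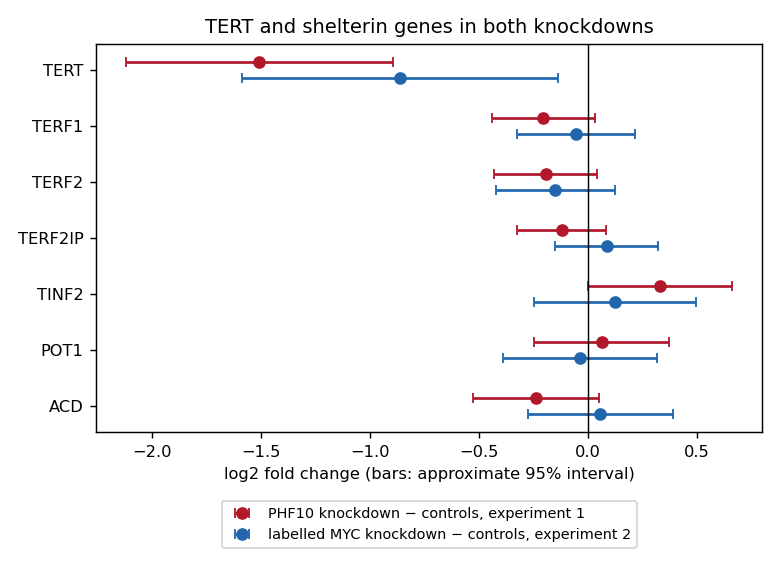
Log2 fold changes of the 7 genes (points) with approximate 95% intervals (bars) after PHF10 knockdown (red) and in the libraries labelled MYC knockdown (blue), each minus the controls of its experiment. TERT lies at −1.51 and −0.87, with neither interval reaching 0, and all 6 shelterin genes lie between −0.24 and 0.33 with intervals that include 0.

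The 6 shelterin genes did not pass the test after PHF10 knockdown. Their log2 fold changes ran from −0.24 to 0.33, against −1.51 for TERT. The groups did not overlap for 5 of the 7 members, 4 with the knockdown lower and 1 with it higher. Of all tested genes 27.2% did not overlap in this comparison, 13.7% lower and 13.4% higher.

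Of the proteins that bind double-stranded repeats, TERF1 was at 23.4, 28.5, 26.3 and 25.7 CPM after PHF10 knockdown (replicates 1 to 4), against control levels of 29.3 and 30.5 CPM. TERF2 measured 41.5, 43.5, 46.3 and 37.9 CPM in the knockdown, against 50.4 and 46.5 CPM in the controls. All knockdown libraries were below both controls for both genes, with the nearest libraries of TERF2 at 46.3 and 46.5 CPM. The log2 fold changes were −0.20 (SE 0.10, edgeR adjusted p = 0.289) for TERF1 and −0.19 (SE 0.11, adjusted p = 0.315) for TERF2. Their approximate 95% intervals, −0.44 to 0.03 and −0.43 to 0.04, include ratios to the controls as low as 0.737 and 0.742 and also a ratio of 1.

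TERF2IP, the partner of TERF2, measured 121, 118, 118 and 129 CPM in the PHF10 knockdown libraries, against 135 and 130 CPM in the controls. The knockdown lay below the controls without overlap, with the nearest libraries at 129 and 130 CPM. The log2 fold change was −0.12 (SE 0.09, adjusted p = 0.484).

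TINF2, the bridge between the arms, was the member with the highest fold change. TINF2 was at 20.9, 24.3, 29.3 and 21.1 CPM after PHF10 knockdown, in replicate order, against control levels of 18.3 and 19.7 CPM. The knockdown libraries were all above both controls, and replicate 3 stood highest. The log2 fold change was 0.33 (SE 0.15, approximate 95% interval −0.001 to 0.66), with an unadjusted p of 0.0506 and an adjusted p of 0.222 by edgeR.

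POT1, which binds the single-stranded end, measured 33.7, 23.9, 26.1 and 29.5 CPM in the PHF10 knockdown libraries, against 26.9 and 27.2 CPM in the controls. Its partner ACD measured 23.4, 24.2, 31.0 and 27.5 CPM in the knockdown, against 29.8 and 32.8 CPM in the controls. The groups overlapped for both genes, and the POT1 knockdown libraries lay on either side of the controls. The log2 fold changes were 0.06 (SE 0.14, adjusted p = 0.832) for POT1 and −0.24 (SE 0.13, adjusted p = 0.315) for ACD.

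**Figure D3:**
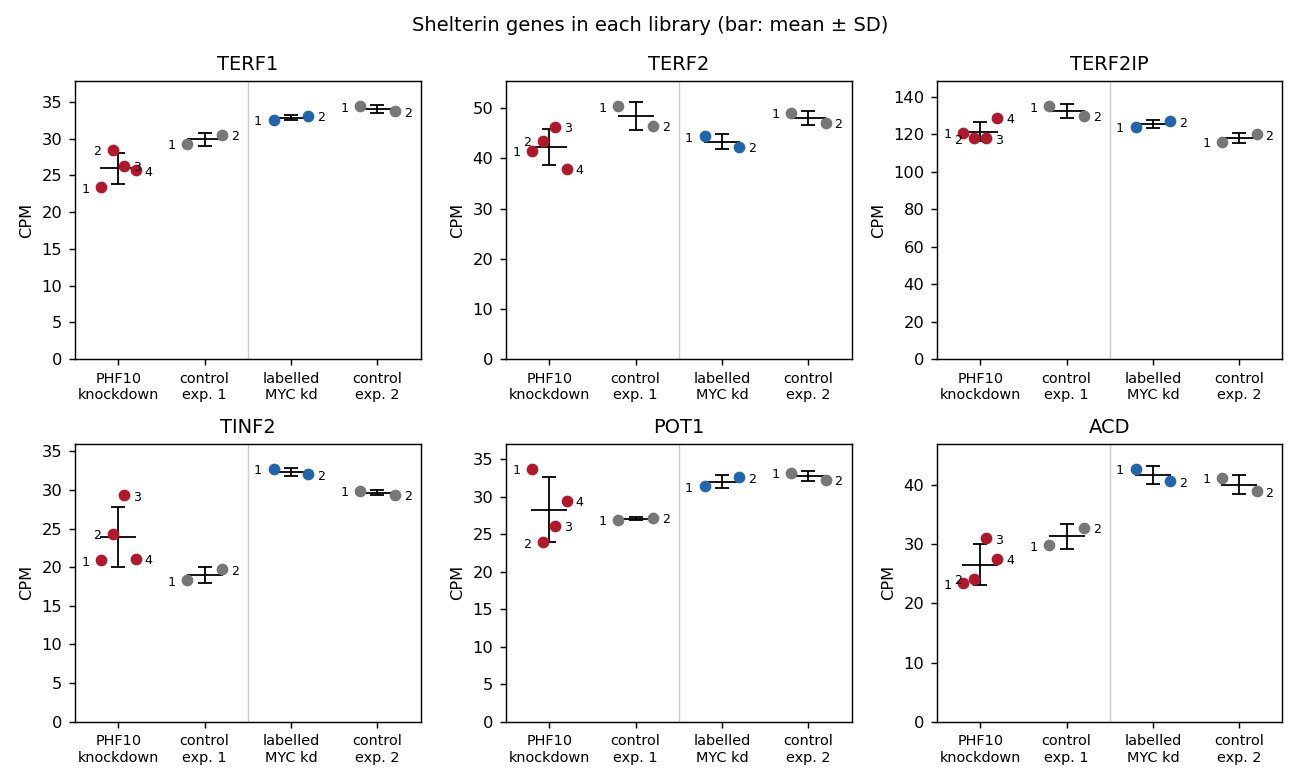
The 6 shelterin genes in CPM (vertical axes, linear from 0, a scale for each gene) in each library, by group; points are libraries with their replicate number, bars the mean ± SD. PHF10 knockdown and control libraries differ by little beside the distance of each axis to 0, TINF2 lies at 29.4 to 32.7 CPM in experiment 2 and at 18.3 to 29.3 CPM in experiment 1, and POT1 and ACD overlap in both comparisons.

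No shelterin gene was called in the libraries labelled MYC knockdown. TERF1 measured 32.6 and 33.1 CPM in the labelled libraries against 34.4 and 33.7 CPM in their controls, and TERF2 measured 44.4 and 42.3 CPM against 49.1 and 47.1 CPM. TERF2IP measured 124 and 127 CPM against 116 and 120 CPM, and TINF2 measured 32.7 and 32.0 CPM against 29.9 and 29.4 CPM. These 4 genes did not overlap between the groups, TERF1 and TERF2 lower and the other 2 higher in the labelled libraries. POT1, at 31.4 and 32.6 CPM against 33.2 and 32.3 CPM, and ACD, at 42.7 and 40.6 CPM against 41.2 and 38.9 CPM, overlapped. With TERT, 5 of 7 members did not overlap, in a comparison of 2 libraries with 2 where 69.7% of all tested genes did not, 36.0% lower and 33.6% higher. The log2 fold changes of the 6 genes ran from −0.15 (TERF2) to 0.13 (TINF2), with edgeR adjusted p-values of at least 0.682. With experiment 2 fitted alone TERF2 had −0.14 on the log2 scale (edgeR adjusted p = 0.0448), in a fit that called 22.6% of all genes lower and 21.9% higher.

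Levels were also compared between the members, as CPM per kb of annotated exons. TERF2IP was highest in all 4 groups, at 36.0 ± 1.6 CPM per kb after PHF10 knockdown and 39.1 ± 1.0 in the controls of experiment 1, and at 37.2 ± 0.7 in the libraries labelled MYC knockdown and 35.0 ± 0.9 in their controls (SD, n = 4, 2, 2 and 2). TERT was lowest, at 0.53 ± 0.15 CPM per kb after PHF10 knockdown and 1.52 ± 0.31 in its controls, and at 0.57 ± 0.13 in the labelled libraries and 1.05 ± 0.05 in theirs. Between these ends stood TINF2, ACD and TERF2 at group means of 7.01 to 12.9 CPM per kb, then POT1 at 4.59 to 5.55 and TERF1 at 2.94 to 3.86. TINF2, ACD and TERF2 overlapped in range after PHF10 knockdown, from 6.75 to 10.8 CPM per kb, so their order is not set there. With the longest transcript as the length, TERF1 stood above POT1 in every group and TERF2 moved up to the second place in 3 groups, while the 2 ends kept their places.

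The baseline of the members was read from the controls of experiment 2 against those of experiment 1, which differ in everything that differed between the experiments. TINF2 was higher in experiment 2, at 29.9 and 29.4 CPM against 18.3 and 19.7 CPM, with a log2 fold change of 0.64 (SE 0.17, edgeR adjusted p = 0.0331). It was the only 1 of the 7 called, in a comparison where 14.6% of all genes were called, 8.05% higher and 6.6% lower. The split of those calls depends on scaling, with 1485 higher and 1217 lower as reported and 1028 and 1690 with upper-quartile factors, which moved the median of all genes by −0.115 on the log2 scale. TINF2 missed the threshold without any 1 of the 4 controls (adjusted p = 0.0901 to 0.169) or any 1 labelled MYC knockdown library (0.0636 and 0.0639), with upper-quartile factors (0.0636) and with unstranded counts (0.0814). With the high-interferon libraries left out it missed it too (0.0826). The unstranded column differs most for TINF2, where 351 reads lay on the other strand beside 7328 on its own. TERT had 4.97 and 4.67 CPM in the controls of experiment 2 against 7.99 and 5.96 CPM in those of experiment 1 (log2 fold change −0.53, SE 0.32, adjusted p = 0.297). That value was −0.30 without control replicate 1 of experiment 1 and −0.30 with the high-interferon libraries left out.

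Other genes of telomere biology were taken by list. Telomerase itself is TERT with TERC, the H/ACA proteins around dyskerin (DKC1) and factors that process or carry the RNA. Of 18 genes in that list 17 were tested. After PHF10 knockdown 1 rose and none fell, against 2.75% and 3.58% of all genes. A negative log2 fold change was found in 15 of the 17, against 47.9% of all genes tested. The list median was −0.33 against 0.02 for all tested genes. The median was −0.47 without control replicate 1 and −0.15 without control replicate 2. TENT4B, a poly(A) polymerase that tags TERC precursors for trimming, measured 29.6, 28.7, 30.7 and 31.0 CPM after PHF10 knockdown against 21.7 and 21.0 CPM in the controls. It rose by 0.49 (SE 0.10, adjusted p = 0.0189), but not with experiment 1 fitted alone (adjusted p = 0.136), nor with either control left out (0.113 and 0.156) or any 1 library of experiment 2 (0.0552 to 0.0561). It also missed the threshold with no filter (0.101) and with the low-interferon libraries left out (0.162).

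DKC1 measured 133, 96.0, 121 and 163 CPM after PHF10 knockdown against 175 and 223 CPM in the controls, without overlap (log2 fold change −0.63, SE 0.19, adjusted p = 0.0799). WRAP53, which carries telomerase to Cajal bodies, measured 16.3, 12.7, 19.9 and 15.7 CPM against 21.2 and 22.6 CPM (log2 fold change −0.44, SE 0.16, adjusted p = 0.133). Neither passed. TERC, which lacks a poly(A) tail in its mature form, was at 0 to 0.0802 CPM in these poly(A)-selected libraries and was not tested. TERC also overlaps another annotated entry on its strand, so its count is uncertain. In the libraries labelled MYC knockdown 15 of the 17 genes again had a negative log2 fold change, against 51.1% of all genes tested. The list median was −0.33 against −0.01 for all tested genes. None was called by edgeR, DESeq2 or limma-voom, and 5 had an unadjusted p under 0.05 by edgeR, against 13.2% of all genes tested. With experiment 2 fitted alone 14 fell and 1 rose, in a fit that called 22.6% of all genes lower and 21.9% higher.

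The list of telomere replication and end processing held more of the called genes. Of 21 genes 20 were tested, and 7 fell and 2 rose after PHF10 knockdown, against 3.58% and 2.75% of all genes tested, with a median of −0.45 on the log2 scale. EXO1, the exonuclease that resects the strand at chromosome ends, measured 23.7, 19.6, 26.3 and 28.6 CPM after PHF10 knockdown against 54.9 and 51.6 CPM in the controls, which the fit put at −1.12 on the log2 scale (SE 0.14, adjusted p = 0.00361). The groups were far apart, and the call was lost only with experiment 1 fitted alone (adjusted p = 0.0577). The helicase BLM fell by 1.21 (SE 0.21), the flap nuclease FEN1 by 0.85 (SE 0.16), the nuclease DCLRE1B (Apollo), which TERF2 binds, by 1.01 (SE 0.21), and the primase subunit PRIM1 by 0.99 (SE 0.18). POLA2 of DNA polymerase alpha fell by 0.94 (SE 0.15). Several of these genes serve replication along the whole chromosome.

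These calls were also lost with experiment 1 fitted alone, where none of the 20 passed. That fit called only 23 genes higher and 27 lower over all genes. With either control of experiment 1 left out, fewer genes were called in the list and also over all genes. Without control replicate 1, adjusted p-values were 0.0781 for BLM, 0.0686 for FEN1, 0.0934 for DCLRE1B, 0.0783 for PRIM1 and 0.0856 for POLA2. Without control replicate 2 they were 0.0738 for BLM, 0.13 for FEN1, 0.164 for DCLRE1B and 0.102 for PRIM1. DCLRE1B also missed the threshold with either control of experiment 2 left out (0.0518 and 0.0519). With the high-interferon libraries left out 4 genes of the list fell, and with the low ones left out 6 did, and none rose in either. PRIM1, FEN1 and POLA2 overlap other annotated genes on their strand, so their counts are uncertain.

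The 2 genes that rose and the seventh that fell were named after their values were seen. They belong to one machinery, since CTC1 and STN1 form the CST complex with TEN1 and CST brings polymerase alpha, with its catalytic subunit POLA1, to the end that telomerase has extended. STN1 measured 63.9, 36.0, 36.5 and 50.1 CPM after PHF10 knockdown against 23.0 and 23.5 CPM in the controls and rose by 1.00 (SE 0.23, adjusted p = 0.0317). CTC1 measured 30.9, 27.4, 31.2 and 30.1 CPM against 22.2 and 22.0 CPM and rose by 0.44 (SE 0.11, adjusted p = 0.0422). POLA1 measured 33.0, 20.3, 30.3 and 37.1 CPM against 49.5 and 58.5 CPM and fell by 0.84 (SE 0.20, adjusted p = 0.0355). The groups of all 3 genes stood apart, yet all 3 missed the threshold with experiment 1 fitted alone (0.132, 0.188 and 0.144), with either control of experiment 1 left out (0.103 to 0.244) and without any 1 library of experiment 2 (0.0626 to 0.1). STN1 also missed it without PHF10 knockdown replicate 4 (0.0555), CTC1 without replicates 1, 3 or 4 (0.0538, 0.0608 and 0.0622) and POLA1 without replicate 3 (0.0568). With the low-interferon libraries left out all 3 missed it (STN1 0.178, CTC1 0.266, POLA1 0.154), with the high ones left out STN1 and CTC1 did (0.0647 and 0.0893), and with no filter CTC1 did (0.21).

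In the libraries labelled MYC knockdown STN1 measured 35.9 and 36.5 CPM against 23.8 and 27.1 CPM, and CTC1 measured 28.3 and 26.1 CPM against 19.6 and 21.1 CPM. Both lay above their controls without overlap, with log2 fold changes of 0.51 (adjusted p = 0.424) and 0.42 (adjusted p = 0.163). None of the 20 genes was called there by edgeR or limma-voom. By DESeq2 1 was called higher and 1 lower, beside 354 higher and 366 lower over all genes. By edgeR 4 had an unadjusted p under 0.05, against 13.2% of all genes tested. The list median was −0.25, and with experiment 2 fitted alone 12 fell and 3 rose, again beside 22.6% and 21.9% of all genes.

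Telomeric chromatin, a list of 16 genes for histone H3.3 deposition and heterochromatin at telomeres, had a median of −0.17 after PHF10 knockdown, with 1 gene lower and none higher, against 3.58% and 2.75% of all genes. The median was −0.09 without control replicate 1. The histone chaperone ASF1B measured 19.5, 21.7, 39.2 and 27.5 CPM after PHF10 knockdown against 65.4 and 61.7 CPM in the controls and fell by 1.23 (SE 0.23, adjusted p = 0.0146). It missed the threshold with experiment 1 fitted alone (0.0941), with either control of experiment 1 left out (0.0915 and 0.09) and with the high-interferon libraries left out (0.0534). In the libraries labelled MYC knockdown the median was −0.04, or 0.0095 without labelled replicate 1, and none was called by edgeR, DESeq2 or limma-voom. By edgeR 2 of the 16 had an unadjusted p under 0.05, against 13.2% of all genes tested.

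**Figure D4:**
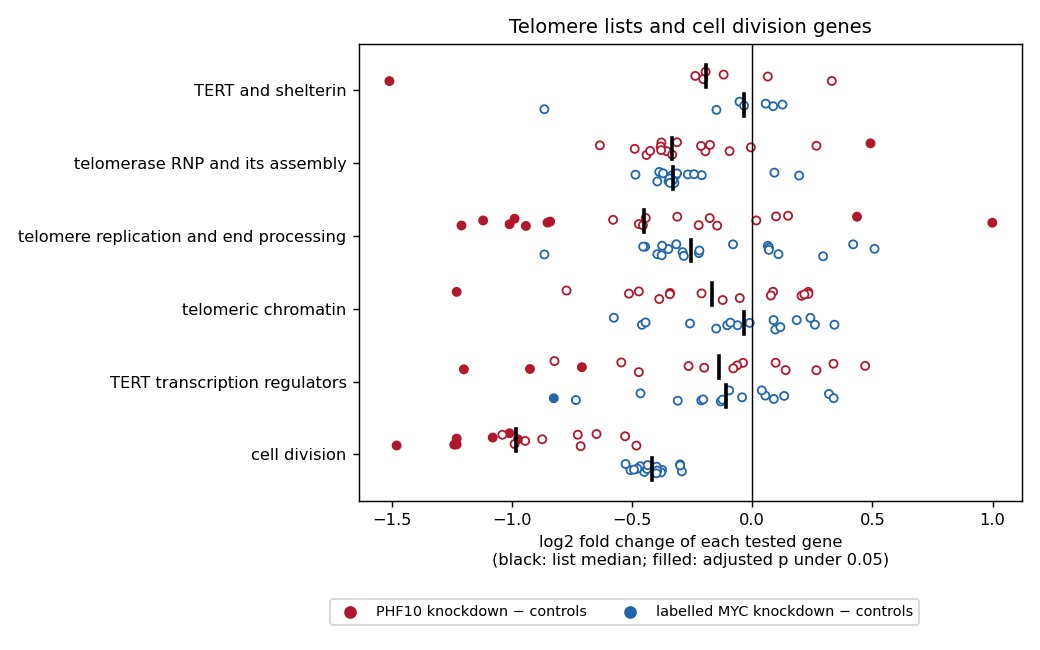
Log2 fold change of each tested gene (points; filled where the edgeR adjusted p is under 0.05) in 6 lists, after PHF10 knockdown (red, upper strip of each list) and in the libraries labelled MYC knockdown (blue, lower strip); black bars are list medians. The cell division list has the lowest median after PHF10 knockdown (−0.98), TERT stands far to the left of the shelterin genes, and 1 blue point, ETS1, is filled.

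Factors that bind or regulate the TERT promoter formed a list of 16 genes. After PHF10 knockdown 3 fell and none rose, against 3.58% and 2.75% of all genes, with a median of −0.14. The median was −0.29 without control replicate 1 and −0.01 without control replicate 2. The cell cycle factor E2F1 measured 11.5, 14.4, 19.7 and 14.4 CPM after PHF10 knockdown against 34.6 and 34.4 CPM in the controls and fell by 1.20 (SE 0.17, adjusted p = 0.00572). ETS2 measured 12.3, 13.7, 15.1 and 15.3 CPM against 25.0 and 28.5 CPM and fell by 0.92 (SE 0.13, adjusted p = 0.00559). Both genes were lower in all knockdown libraries without overlap.

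ETS1 measured 37.0, 32.3, 31.2 and 33.9 CPM after PHF10 knockdown against 49.8 and 60.1 CPM in the controls and fell by 0.71 (SE 0.11, adjusted p = 0.00819). With experiment 1 fitted alone E2F1, ETS2 and ETS1 missed the threshold (0.0627, 0.0602 and 0.0835), and ETS2 and ETS1 missed it without control replicate 2 (0.0615 and 0.0905). ETS1 also missed it with the low-interferon libraries left out (0.084). MYC itself measured 12.9, 9.69, 14.6 and 22.0 CPM after PHF10 knockdown against 20.2 and 32.1 CPM and overlapped between the groups (log2 fold change −0.82, adjusted p = 0.174).

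In the libraries labelled MYC knockdown ETS1 was the 1 gene of this list called. It measured 150 and 155 CPM in the labelled libraries against 273 and 267 CPM in the controls and fell by 0.83 (SE 0.13, adjusted p = 0.0335), in a comparison where 0.211% of all genes were called lower. The groups were far apart beside their spread, but with any 1 library of experiment 2 left out the adjusted p was 0.312 to 0.377. ETS2 measured 17.5 and 15.6 CPM against 25.8 and 29.2 CPM, without overlap (log2 fold change −0.73, adjusted p = 0.0699). ETS1 and ETS2 encode transcription factors of the ETS family.

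Genes beside TERT on chromosome 5 were examined for a change shared with it. Of 19 protein-coding genes that start within 1 Mb of the TERT start 15 were tested. After PHF10 knockdown their median log2 fold change was −0.08, with 1 lower and none higher, against 3.58% and 2.75% of all genes tested. In the libraries labelled MYC knockdown their median was 0.05 with none called by edgeR, against 0.493% of all genes tested. CLPTM1L, the nearest, begins 50.03 kb away, and its mean was 214 CPM after PHF10 knockdown and 227 CPM in the controls (log2 fold change −0.08, SE 0.10, adjusted p = 0.697). The mitotic checkpoint gene TRIP13, 402.4 kb away, fell by 0.70 (SE 0.18, adjusted p = 0.0475), and missed the threshold with experiment 1 fitted alone (0.172), with either control of experiment 1 left out (0.121 and 0.293), without PHF10 knockdown replicates 1, 2 or 4 (0.0622 to 0.0714) and without any 1 library of experiment 2 (0.0885 to 0.0924). It also missed it with upper-quartile factors (0.0544), unstranded counts (0.055) and the high-interferon libraries left out (0.0647). SLC6A18 and SLC6A19, the nearest genes on the telomere side, were at or near 0 in all groups.

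The genes whose levels followed TERT most closely over the 10 libraries, after the mean of each experiment was removed from log2 CPM, were CCDC15 (Pearson's r = 0.984), CDC25A (0.980), C1orf112 (0.979), ORC3 (0.969) and NUP85 (0.968), of 12590 genes ranked. The phosphatase CDC25A drives entry into S phase, and ORC3 is a subunit of the origin recognition complex. CDC25A averaged 40.3 CPM after PHF10 knockdown and 62.3 CPM in the controls, and in experiment 2 it averaged 61.9 CPM in the labelled libraries and 79.4 CPM in the controls. Of the shelterin genes TERF2 followed TERT most (0.779), then ACD (0.608), TERF1 (0.520), TERF2IP (0.391) and POT1 (0.055), and TINF2 ran against it (−0.573). The 10 points share 2 knockdown contrasts and the depth of each library, so that any gene lower in both knockdowns scores high.

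**Figure D5:**
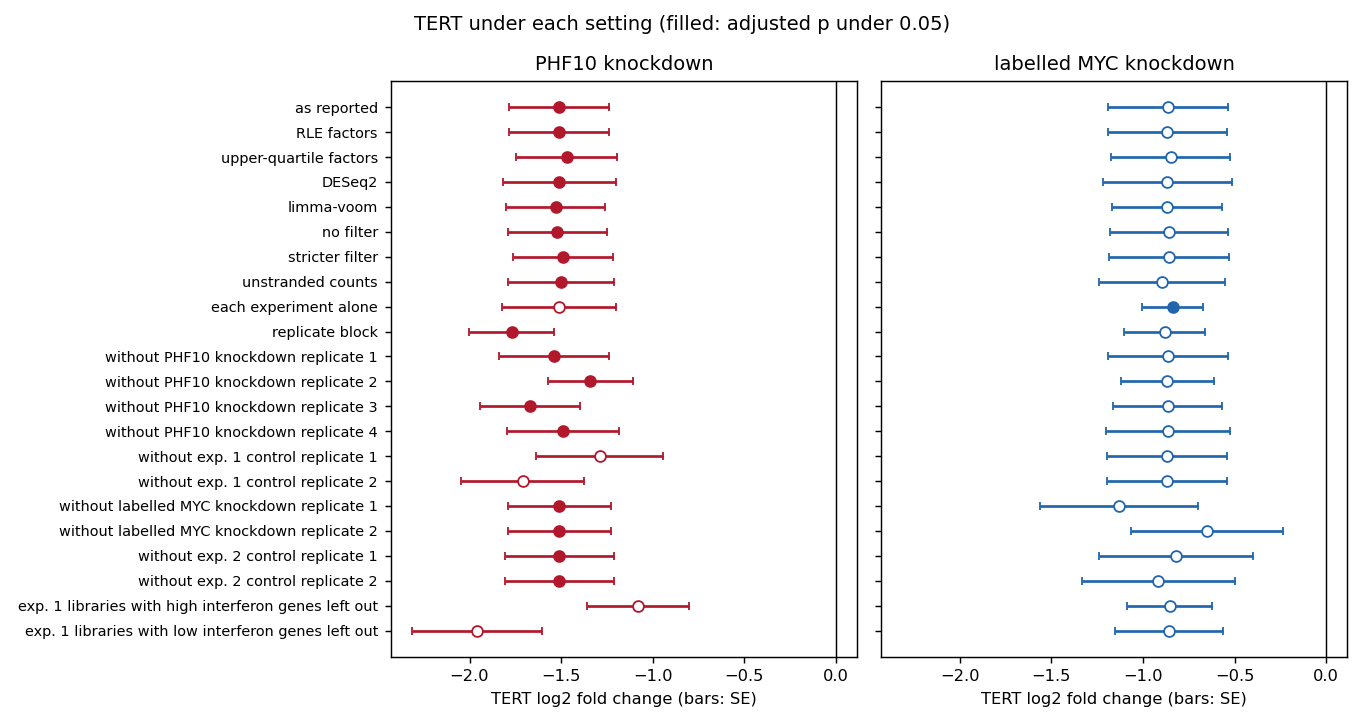
TERT log2 fold change (points) with its SE (bars) under each setting, after PHF10 knockdown (left) and in the libraries labelled MYC knockdown (right), on a shared horizontal axis; filled points have an adjusted p under 0.05. All points lie below 0; the call after PHF10 knockdown is lost in 5 settings, all of which change the libraries of the fit, and the labelled MYC knockdown is called in 1, with experiment 2 fitted alone.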

How the data were processed

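Poly(A)-selected RNA went into 10 directional libraries, read singly over 100 nt (per the labels' protocols). The submitters' processing notes name cutadapt, STAR and the build GRCh38.p13 (hg38). Versions and the annotation release: not given in the sources used here. Deposited values are raw counts per Ensembl ID, in STAR's layout, in an unstranded and 2 stranded columns. The opposite-strand column was used, since the same-strand column held only 5.26% to 5.55% of stranded gene reads. Summary lines for reads not assigned to a gene, 19.06% to 23.6% of a library, stayed out of library sizes. Total reads were 26.07 to 47.56 M per library.

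From these counts, edgeR 4.0.16 (R 4.3.3) fitted all 10 libraries as 4 group means by quasi-likelihood, with TMM factors, filterByExpr and robust estimates, leaving 6 residual degrees of freedom. Genes were called at a Benjamini-Hochberg adjusted p under 0.05 over all 18450 genes tested. Approximate 95% intervals are the log2 fold change with its SE and the fit's degrees of freedom. The fit was tested on simulated data in which each gene had the same spread in all libraries. The unequal spread of the experiments was therefore not covered. Symbols came from a table of gene names, coordinates and exon lengths from GENCODE release 29 on GRCh38, and promoters from RefSeq (GRCh38.p14). All 147 list symbols matched. Alternatives were RLE and upper-quartile factors, DESeq2 1.42.0, limma-voom (limma 3.58.1), no filter or a stricter one (1 CPM in 4 libraries), unstranded counts, each experiment alone, a replicate block, each library left out, and the interferon-high or -low libraries of experiment 1 left out.

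The members, lists and tests were chosen with earlier results of these data known. Named genes were the 7 members, PHF10, MYC, TERC, DKC1 and WRAP53, up to 6 called genes of each telomere list by smallest unadjusted p, neighbours of TERT within 1 Mb and the 5 genes most like TERT with a mean of at least 1 CPM. Cell division genes named in the text, SOX10 and other markers, STN1, CTC1 and POLA1 were named after their values were seen.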

Additional observations from a re-analysis of the deposited data

How the results depend on the processing

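TERT kept its direction after PHF10 knockdown, in the labelled MYC knockdown and in their difference under every alternative run. After PHF10 knockdown it was no longer called with experiment 1 alone (−1.51) or with the high- (−1.08) or low-interferon (−1.96) libraries left out, so that 0 members were lower, and with 1 library left out it ran from −1.71 to −1.29 with 0 to 1 members lower. In the labelled MYC knockdown it was called only with experiment 2 alone (−0.84, 2 members lower), in a fit that called 22.6% of all genes lower. With 1 library left out it ran from −1.13 to −0.65, the difference of effects from −0.86 to −0.38 and TERT between the controls from −0.715 to −0.299. In the controls, 0 members were higher with upper-quartile factors, unstranded counts or high-interferon libraries left out, and 0 to 1 with 1 library left out. Small values changed sign, and the cause was not tested: POT1 after PHF10 knockdown (−0.029 to 0.141 with 1 library left out), and TERF2 in the difference (0.00425 without high-interferon libraries, −0.103 to 0.010 with 1 left out) and between the controls (0.032 with no filter, 0.00827 unstranded, 0.055 without high-interferon libraries, −0.054 to 0.059 with 1 left out). The replicate numbers were not shown to pair the libraries (same-number correlations of 0.484 and −0.297 in experiment 1 and −0.031 in experiment 2). With 2 controls the deviations from their mean mirror each other, so these correlations cannot settle whether libraries were paired. With the replicate block TERT was −1.77 after PHF10 knockdown (edgeR adjusted p = 0.0313), −0.88 in the labelled MYC knockdown (0.191), −0.88 in the difference (0.319) and −0.94 between the controls (0.0941). With the block the calls of TENT4B, CTC1, STN1, POLA1, POLA2 and ETS1 after PHF10 knockdown were lost (adjusted p = 0.0697 to 0.136), and so was that of ETS1 in the labelled MYC knockdown (0.116).

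Counts over all genes moved more. After PHF10 knockdown 508 rose and 661 fell, against 627 and 574 with upper-quartile factors, 1032 and 1133 by DESeq2, 1135 and 1237 with no filter, 23 and 27 with experiment 1 alone, 140 and 383 without low-interferon libraries and 68 to 650 and 136 to 737 with 1 library left out. In the labelled MYC knockdown 52 rose and 39 fell, against 354 and 366 by DESeq2, 130 and 81 by limma-voom, 453 and 458 with no filter, 530 and 551 without high-interferon libraries, 80 and 79 without low-interferon ones, 3827 and 3954 with experiment 2 alone, 0 with the block, 0 without any 1 library of experiment 2 and 0 to 131 and 0 to 100 over all libraries left out in turn. For the difference of effects 48 and 23 genes were called, against 363 and 270 by DESeq2, 585 and 333 with no filter, 161 and 101 without high-interferon libraries, 6 and 0 without low-interferon ones, 1 and 0 with the block and 1 to 91 and 0 to 49 with 1 library left out, and experiments fitted alone give no such value. Between the controls 1485 and 1217 genes were called, and fewer with any 1 control left out. The order of levels per kb depends on the length used. Few TERT reads limit precision.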
